A study of Homo sapiens with 20 samples.

Results

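Ligands and receptors of axon guidance were followed across 20 RNA-seq libraries of K562 cells, a human erythroleukaemia line. The 51 genes were listed by family and symbol and matched to Ensembl gene identifiers, with no threshold on a measured value, though the list was drawn up with earlier results of these data known. They comprise 18 semaphorins, 8 plexins and 1 neuropilin, 5 ephrins, 8 Eph receptors, 2 netrins, 4 netrin receptors, 3 slits and 2 robos. Each of the 51 was found among the 57736 identifiers of the drug files and the 53150 genes of the excision files.

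Axon guidance cues attract or repel the growth cones of neurons. Semaphorins signal through plexins, and most secreted class 3 semaphorins also need a neuropilin as co-receptor. Ephrins are tethered to the membrane and bind Eph receptor tyrosine kinases on neighbouring cells, netrins bind DCC, neogenin and the UNC5 receptors, and slits bind robos. Outside the nervous system the same families act in vessel growth, adhesion, migration and immune cell contact, and EPHB4 is known from erythroid progenitors.

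In the drug arm, 2 libraries each came from K562 cells given 5 µM GSK343 for 72 h, 100 µM X5050 for 72 h, both drugs at these doses for 8, 24 or 72 h, or the vehicle DMSO for 72 h. GSK343 inhibits EZH2, the methyltransferase of Polycomb repressive complex 2, and X5050 inhibits REST, a repressor of neuronal genes. In the excision arm, 2 libraries each came from K562 cells after CRISPR excision of silencer 1 (S1KO), silencer 2 (S2KO) or both (DKO), or carrying the empty vector (EV). The comparisons ask which genes differ when EZH2 and REST are inhibited alone or together, and when 1 or both silencers are missing. No DMSO library was taken at 8 or 24 h, so at those times drug and time cannot be told apart. The labels do not say whether an excised line is 1 clone, and all libraries share the same parent line. The series' design text calls the libraries biological replicates, and p-values below measure the spread between these libraries. With 2 libraries in each group, 0.333 is the smallest p that an exact permutation can reach, and every call rests on the variance model of edgeR (quasi-likelihood test, Benjamini-Hochberg adjusted p under 0.05).

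The drug libraries held 22925617 to 38177320 counts on genes and the excision libraries 55913561 to 98507788. Levels within a gene are given as CPM, gene counts scaled by library size. Erythroid markers summed to 1858 to 6395 CPM over drug libraries and to 2911 to 20182 CPM over excision libraries, and none of the 14 was at 0 in a whole group. Libraries 1 and 2 of S1KO, S2KO and EV stood apart from each other: the mean chi-square per gene between the pair was 190.4 in S1KO, 313.0 in S2KO and 327.8 in EV, against 14.7 in DKO and 7.17 to 35.8 in the drug groups. EZH2 and REST transcripts were present in all 20 libraries, with EZH2 at 108 to 247 CPM and REST at 53.1 to 127 CPM. Neither transcript was called with GSK343 or X5050 alone, and a drug that blocks the protein need not change its mRNA. With both drugs, REST had 127 and 103 CPM at 8 h, 124 and 116 CPM at 24 h and 69.3 and 69.5 CPM at 72 h. DMSO libraries had 53.1 and 68.3 CPM. EZH2 had 183 and 185 CPM at 8 h, 247 and 245 CPM at 24 h and 108 and 111 CPM at 72 h, against 163 and 122 CPM with DMSO.

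The count filter kept 38 of the 51 genes among drug libraries and 46 among excision libraries, and members that passed only because 1 group was high had to differ. The 13 untested members of the drug arm were SEMA3D, SEMA3E, SEMA5A, SEMA6A, NRP2, EPHA4, EPHB1, EPHB3, NTN1, NTN4, DCC, UNC5A and SLIT1. DCC, the classical attractive netrin receptor, had 0 counts in all 12 drug libraries, and NTN1 and NTN4, the netrins of the list, had 0 counts in all 8 excision libraries. No netrin was tested in either arm. Levels between genes were compared per length, as TPM (scaled by transcript length and library size) in EV libraries. There, 15 members averaged at least 1 TPM and 4 at least 10 TPM. EPHB4, a receptor of ephrin-B2, had the highest mean, at 29.4 and 20.9 TPM, and overlapped SEMA4C, a membrane-bound ligand of plexin-B2, at 22.3 and 18.1 TPM. PLXND1, a semaphorin receptor best known from vessel growth, had 13.1 and 9.90 TPM and PLXNB2 12.1 and 10.8 TPM, which do not differ beyond their spread. EFNA4 had the highest mean of the ephrins, at 2.49 and 2.2 TPM, and overlapped EFNA3 at 2.31 and 1.5 TPM. ROBO3 was the higher robo, at 0.277 and 0.871 TPM. SLIT2 had the highest mean of the slits, at 0.150 and 0.0148 TPM, and overlapped SLIT1 at 0.0262 and 0.0623 TPM. UNC5B, a netrin receptor, differed most between the EV libraries, at 0.930 and 12.3 TPM.

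**Figure D1:**
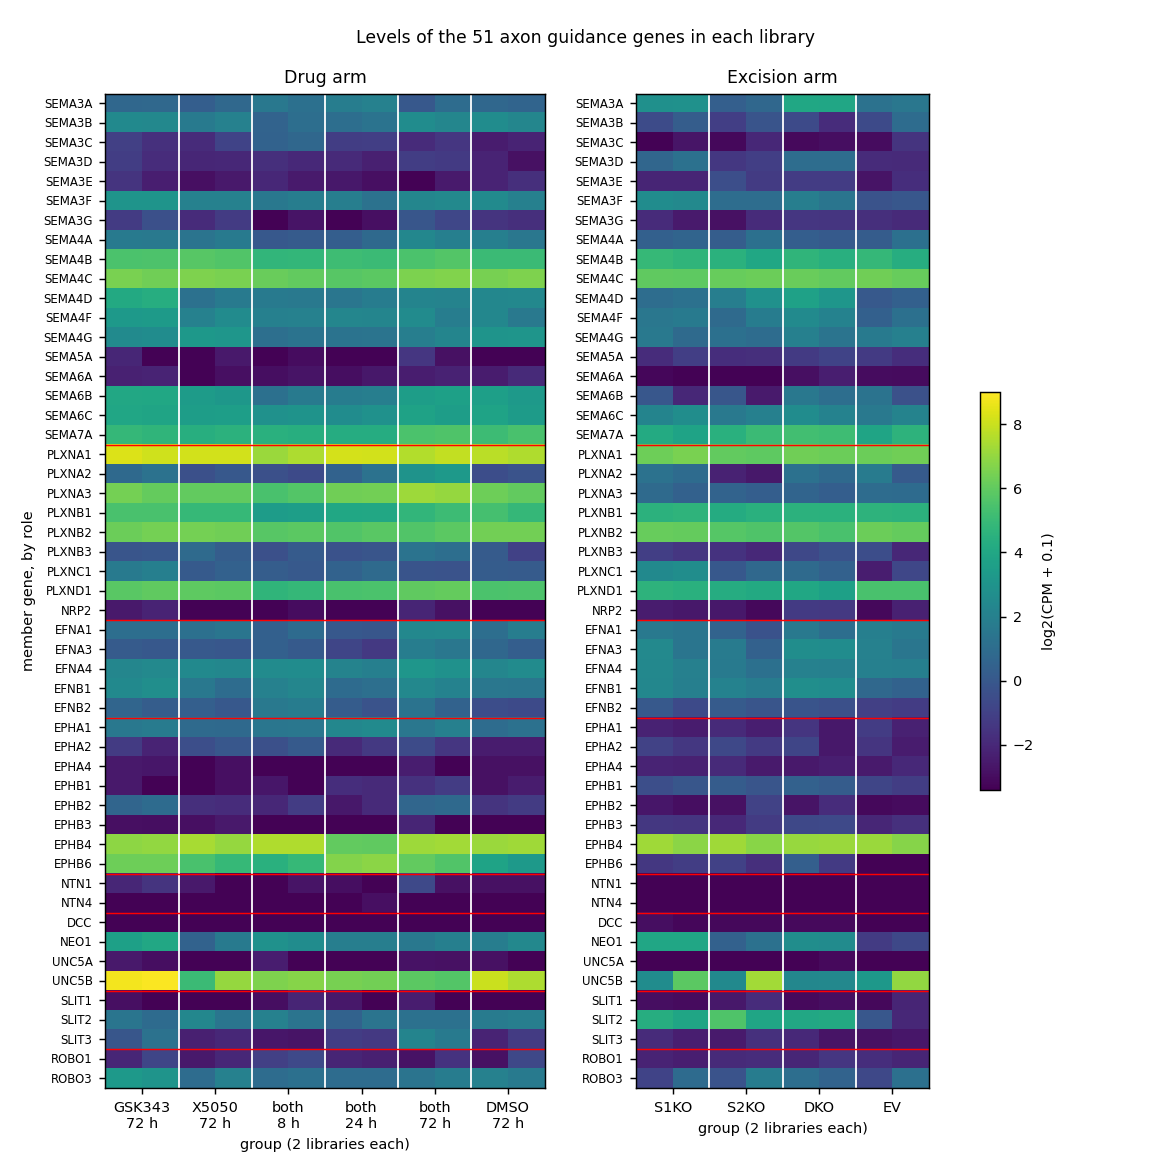
Level of each of the 51 genes in every library, as log2(CPM + 0.1), with genes down the page by role (red lines part the roles) and libraries across, 2 per group. EPHB6 is brighter in every treated library than in DMSO, SLIT3 and PLXNA2 are brightest in the 72 h combination, and UNC5B is brighter in the second than in the first library of S1KO, S2KO and EV. Colours compare libraries for 1 gene, since CPM is not scaled by gene length.

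The upstream regions of the members were rich in CpG. RefSeq windows on GRCh38.p14, from 250 bases before to 50 bases after the start, were at hand for 46 of the 51 members among 27303 genes. The median observed over expected CpG was 0.729 in members and 0.580 in all windows, and the median GC content was 66.8% in members and 58.3% in all. The GC box GGGCGG, read on both strands, was in 38 of 46 member windows (82.6%) and in 44.6% of all. Of the RE1 element that REST binds, CAGCACC was in 4 member windows (8.70%) and in 7.64% of all, and GGACAG was in 9 (19.6%) and in 20.5% of all, again on both strands. The joined form, CAGCACC and GGACAG with 2 bases between, was in 0 member windows and in 14 of all 27303 (0.0513%). SLIT3 and PLXNA2 had the largest fold changes of the tested members with both drugs at 72 h, and EPHB6 rose under every treatment, so their windows are shown here, 5′ to 3′ on the strand of the gene, with capitals marking the GC box and both RE1 letter runs, or their reverse complements. A match describes these letters only, and its part in the results was not tested. The SLIT3 window (chr5:169301090-169301389, minus strand) has an observed over expected CpG of 0.703, the PLXNA2 window (chr1:208244335-208244634, minus strand) 0.812 and the EPHB6 window (chr7:142862506-142862805, plus strand) 0.174, the lowest of the members that rose with GSK343.
SLIT3: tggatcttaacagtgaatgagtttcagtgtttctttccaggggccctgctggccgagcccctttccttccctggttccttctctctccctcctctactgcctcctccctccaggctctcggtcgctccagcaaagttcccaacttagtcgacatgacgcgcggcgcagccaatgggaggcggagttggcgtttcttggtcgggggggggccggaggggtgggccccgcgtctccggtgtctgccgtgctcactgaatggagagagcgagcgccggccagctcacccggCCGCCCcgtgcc
PLXNA2: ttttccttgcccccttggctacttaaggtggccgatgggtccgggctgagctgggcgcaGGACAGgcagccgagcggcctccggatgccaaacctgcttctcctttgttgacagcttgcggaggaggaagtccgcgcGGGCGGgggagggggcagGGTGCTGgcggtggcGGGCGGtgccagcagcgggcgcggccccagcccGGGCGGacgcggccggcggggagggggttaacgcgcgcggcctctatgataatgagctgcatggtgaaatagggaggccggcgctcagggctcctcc
EPHB6: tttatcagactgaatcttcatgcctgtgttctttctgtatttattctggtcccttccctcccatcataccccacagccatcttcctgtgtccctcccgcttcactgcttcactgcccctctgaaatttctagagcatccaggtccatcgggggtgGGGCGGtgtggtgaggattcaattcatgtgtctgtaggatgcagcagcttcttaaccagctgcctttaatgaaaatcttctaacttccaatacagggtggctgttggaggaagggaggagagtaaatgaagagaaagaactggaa

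After 72 h, the guidance genes moved mainly upward with GSK343 and with both drugs, and fewer of them were called with X5050. With GSK343, 13 members rose and 1 fell of 38 tested, where 12.4% of all 19224 tested genes were called, 9.12% up and 3.31% down. The median log2 fold change was 0.52 over the 38 members and 0.00 over all tested genes. With X5050, 7 of the 38 were called, of which 5 rose and 2 fell. Of all genes 12.6% were called there, 5.34% up and 7.23% down, and the medians were -0.09 for members and -0.03 for all. In DESeq2 the X5050 split was 4 up and 3 down, where 1326 of all genes rose and 1231 fell. With both drugs for 72 h, 14 rose and 3 fell, where 36.4% of all genes were called, 19.2% up and 17.3% down, against 44.7% of the tested members, 36.8% up and 7.89% down. Medians in that comparison were 0.26 for members and 0.01 for all genes. With the GC trend removed the split with both drugs was 9 up and 4 down, where 3468 of all genes rose and 3414 fell. Tested members had a median transcript GC content of 59.8%, against 48.7% over all tested genes. In these bulk libraries, fewer cells of a type and less RNA per cell cannot be told apart. The 3 treatments share their DMSO libraries.

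**Figure D2:**
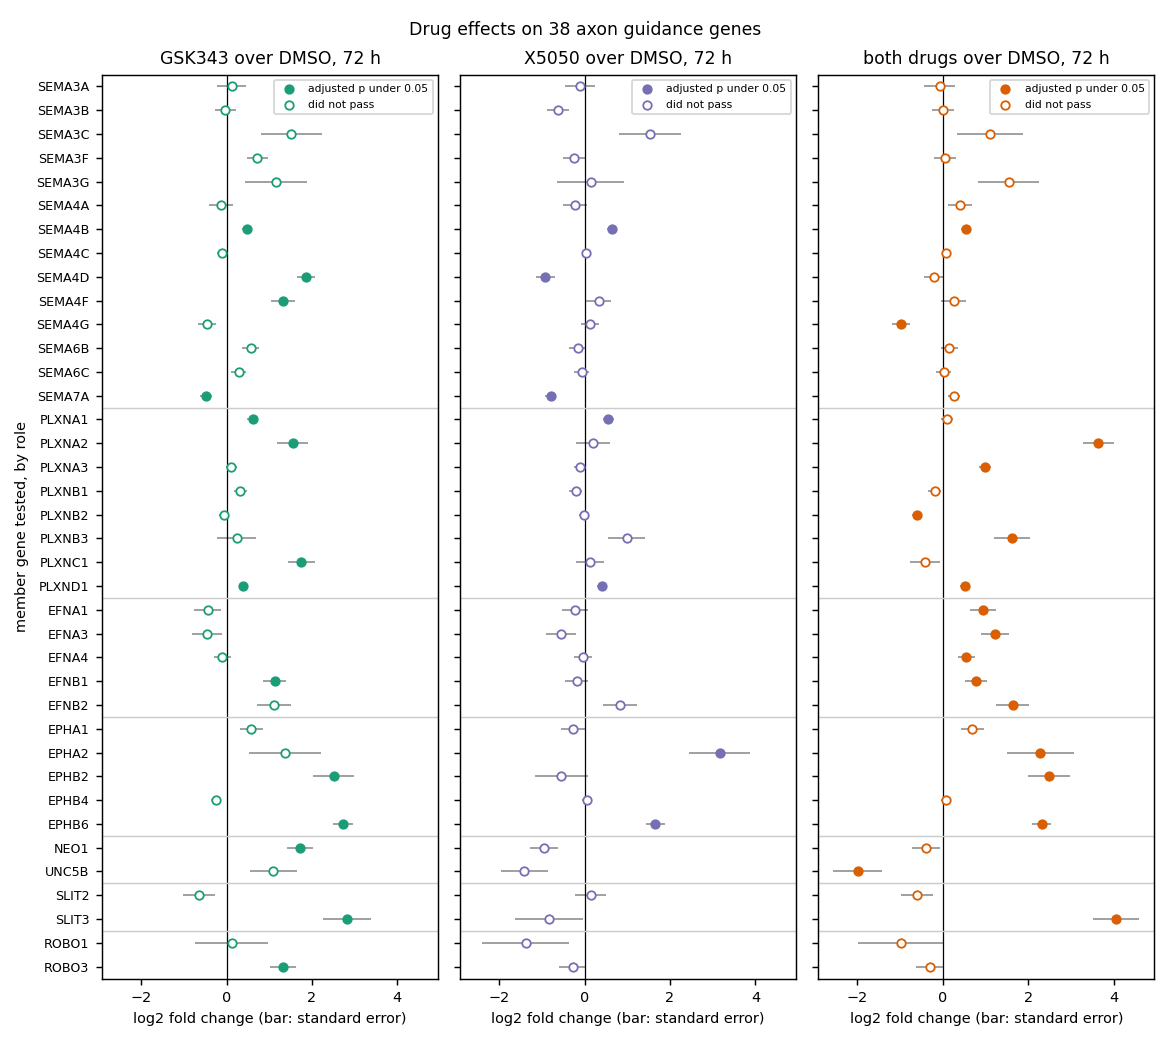
Log2 fold change against DMSO of the tested members (rows, by role) after 72 h with GSK343, X5050 and both drugs, with filled points where the adjusted p was under 0.05 and bars of 1 standard error. SLIT3 and PLXNA2 reach 4.05 and 3.64 with both drugs, EPHB6 lies between 1.65 and 2.72 under each treatment, and UNC5B lies at -1.99 with both drugs.

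Among semaphorins, 3 of 14 tested rose with GSK343 (SEMA4B, SEMA4D and SEMA4F) and SEMA7A fell, where 9.12% of all genes rose and 3.31% fell. SEMA4D, the membrane-bound ligand of plexin-B1 also known as CD100, had 17.2 and 19.8 CPM with GSK343, 2.24 and 3.14 CPM with X5050 and 4.47 and 4.27 CPM with both drugs at 72 h, against 4.96 and 5.2 CPM with DMSO. Earlier, both drugs gave 3.13 and 2.99 CPM at 8 h and 2.62 and 3.37 CPM at 24 h. GSK343 libraries were the highest and overlapped no other group, and X5050 libraries lay below DMSO. The log2 fold change was 1.86 ± 0.21, adjusted p = 3.83e-05 with GSK343 and -0.92 ± 0.23, adjusted p = 0.0155 with X5050 (± standard error throughout). With both drugs it was -0.22 ± 0.22 against DMSO (adjusted p = 0.482) and -2.08 ± 0.22, adjusted p = 2.8e-06 against GSK343 alone. The X5050 call was lost without the first X5050 library (adjusted p = 0.199), on unstranded counts (0.0570) or with only the compared groups fitted (0.179).

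SEMA4F, another membrane-bound class 4 semaphorin, had 9.67 and 10.0 CPM with GSK343, 4.00 and 5.81 CPM with X5050 and 5.83 and 3.55 CPM with both drugs at 72 h, against 4.91 and 2.92 CPM with DMSO. In the combination it stood at 3.90 and 4.11 CPM at 8 h and 4.87 and 4.58 CPM at 24 h. Here too the GSK343 libraries stood above all others, while the 72 h combination overlapped DMSO. It rose with GSK343 (log2 fold change 1.33 ± 0.28, adjusted p = 0.00573) and was lower with both drugs than with GSK343 alone (log2 fold change -1.07 ± 0.28, adjusted p = 0.00605). The first call was lost without the second DMSO library (adjusted p = 0.0570) or without the second GSK343 library (0.0517). The second was lost without the second 72 h combination library (adjusted p = 0.102). SEMA4B, of the same class, was abundant and rose by less, with 45.1 and 46.8 CPM with GSK343, 54.3 and 48.8 CPM with X5050 and 45.5 and 50.4 CPM with both drugs at 72 h, against 32.9 and 33.2 CPM with DMSO. Shorter combined treatment gave 27.2 and 28.3 CPM at 8 h and 35.8 and 33.1 CPM at 24 h. All 6 treated libraries at 72 h lay above DMSO, and both libraries at 8 h lay below it. Its log2 fold change was 0.64 ± 0.11, adjusted p = 0.00202 with X5050, 0.54 ± 0.11, adjusted p = 0.00159 with both drugs and 0.47 ± 0.11, adjusted p = 0.0125 with GSK343. The call with GSK343 was lost without the first GSK343 library (adjusted p = 0.0619), without the second GSK343 library (0.154) or with only the compared groups fitted (0.0805). With both drugs it was lost with the GC trend removed (adjusted p = 0.0733).

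SEMA7A, a ligand of plexin-C1 and integrins held by a lipid anchor, moved the other way. Its levels were 28.7 and 26.6 CPM with GSK343, 20.7 and 23.8 CPM with X5050 and 44.2 and 48.3 CPM with both drugs at 72 h, against 33.7 and 43.8 CPM with DMSO. The combination gave 22 and 20.8 CPM at 8 h and 19.5 and 19.0 CPM at 24 h. Both single drugs gave less SEMA7A than DMSO, and both drugs for 72 h gave the highest values. It fell with X5050 (log2 fold change -0.80 ± 0.14, adjusted p = 0.00180) and with GSK343 (log2 fold change -0.49 ± 0.14, adjusted p = 0.0306), and both drugs gave more than X5050 alone (log2 fold change 1.06 ± 0.14, adjusted p = 4.05e-05). The GSK343 call was lost without the second DMSO library (adjusted p = 0.284), without the first GSK343 library (0.0745), without the second GSK343 library (0.158) or with only the compared groups fitted (0.145). SEMA4G was the semaphorin that fell with both drugs at 72 h, with 5.74 and 6.14 CPM with GSK343, 9.26 and 8.52 CPM with X5050 and 3.64 and 4.62 CPM with both drugs at 72 h, against 7.93 and 8.36 CPM with DMSO. Under both drugs it measured 2.08 and 2.40 CPM at 8 h and 2.40 and 2.51 CPM at 24 h. Every combination library was under every other library, and the call held with each library left out (log2 fold change -0.98 ± 0.21, adjusted p = 0.00181). SEMA4C, the ligand of plexin-B2, had 90.9 and 78.7 CPM with GSK343, 98.7 and 89.8 CPM with X5050 and 94.2 and 100.0 CPM with both drugs at 72 h, against 87.2 and 96.1 CPM with DMSO. Before 72 h, the combination gave 72.6 and 65.9 CPM at 8 h and 55.0 and 57.7 CPM at 24 h. It was not called in the 3 comparisons with DMSO at 72 h.

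**Figure D3:**
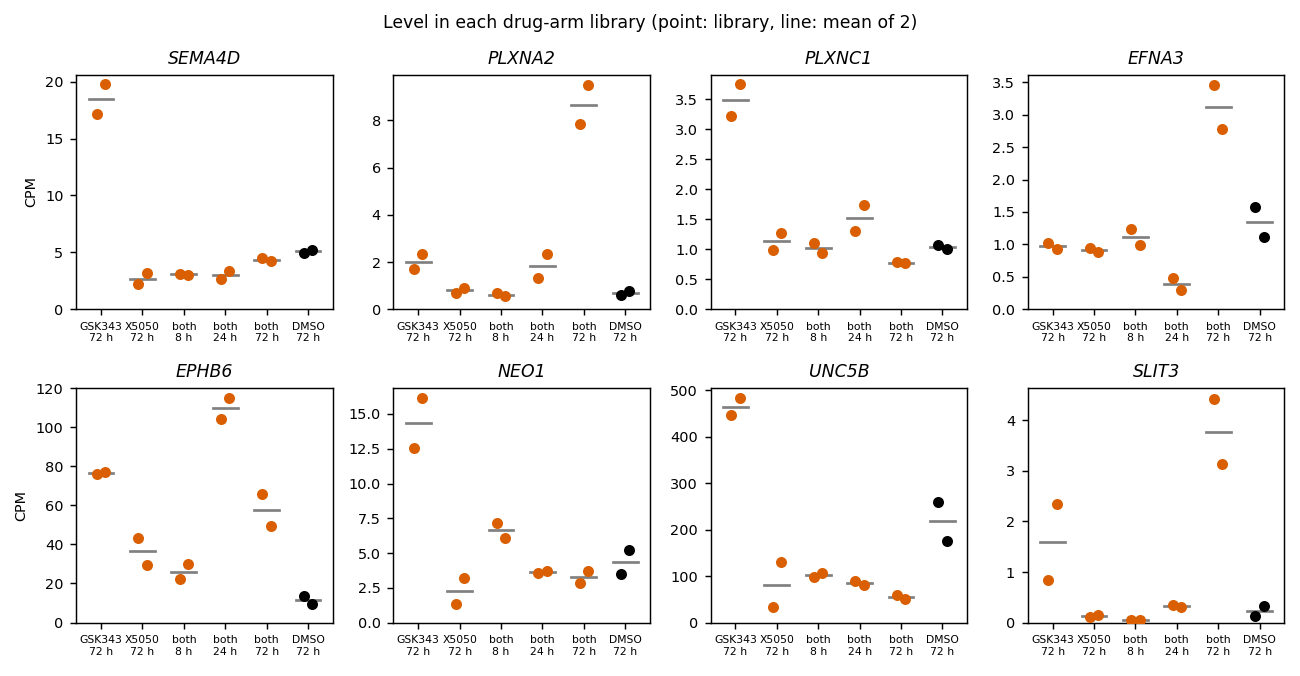
CPM in each of the 12 drug libraries for 8 members, 1 panel each on its own linear scale, with a point per library and a line at the mean of 2. SEMA4D, PLXNC1 and NEO1 peak in GSK343 libraries, PLXNA2, EFNA3 and SLIT3 in the 72 h combination, and EPHB6 at 24 h, while UNC5B is below DMSO in every combination library.

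Of the 8 plexins, 4 rose with GSK343, 2 with X5050 and 4 with both drugs at 72 h, and 1 fell with both drugs. Of all tested genes, 9.12% rose with GSK343, 5.34% with X5050 and 19.2% with both drugs, and 17.3% fell with both drugs. PLXNA2, a receptor of class 3 and class 6 semaphorins, had 1.70 and 2.35 CPM with GSK343, 0.678 and 0.914 CPM with X5050 and 7.84 and 9.50 CPM with both drugs at 72 h, against 0.619 and 0.760 CPM with DMSO. At the earlier combination times it had 0.674 and 0.561 CPM at 8 h and 1.31 and 2.34 CPM at 24 h. The 72 h combination stood alone at the top, GSK343 libraries came next among the 72 h groups, and X5050 overlapped DMSO. The log2 fold change was 3.64 ± 0.35, adjusted p = 1.21e-06 with both drugs and 1.55 ± 0.37, adjusted p = 0.0115 with GSK343, and both drugs exceeded GSK343 alone (log2 fold change 2.09 ± 0.31, adjusted p = 7.23e-05). The GSK343 call was lost without the second GSK343 library (adjusted p = 0.129) or with only the compared groups fitted (0.0575). PLXNA3, a receptor of the same class, rose with both drugs and with neither alone, at 84.1 and 67.0 CPM with GSK343, 65.4 and 64.4 CPM with X5050 and 146 and 133 CPM with both drugs at 72 h, against 75.5 and 64.6 CPM with DMSO. Cells with both drugs had 42.7 and 51.5 CPM at 8 h and 78.2 and 81.7 CPM at 24 h. Both combination libraries at 72 h were above all others, and 8 h gave the lowest values. With both drugs the call held with each library left out (log2 fold change 0.99 ± 0.13, adjusted p = 2.81e-05), and the single drugs gave 0.11 for GSK343 and -0.11 for X5050.

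PLXNC1, the plexin that binds SEMA7A, followed GSK343, at 3.22 and 3.77 CPM with GSK343, 0.983 and 1.28 CPM with X5050 and 0.789 and 0.763 CPM with both drugs at 72 h, against 1.07 and 1.00 CPM with DMSO. Both drugs gave 1.11 and 0.944 CPM at 8 h and 1.31 and 1.74 CPM at 24 h. Values under GSK343 exceeded all others, and with X5050 added they were below DMSO. It rose with GSK343 (log2 fold change 1.75 ± 0.31, adjusted p = 0.00162) and was lower with both drugs than with GSK343 alone (log2 fold change -2.17 ± 0.32, adjusted p = 7.61e-05), and both calls held with each library left out. PLXNA1, a co-receptor of class 3 semaphorins with neuropilins, had 325 and 277 CPM with GSK343, 289 and 288 CPM with X5050 and 192 and 229.9 CPM with both drugs at 72 h, against 209 and 185 CPM with DMSO. Earlier, both drugs gave 141 and 175 CPM at 8 h and 289.8 and 284 CPM at 24 h. It rose with each single drug, by 0.61 ± 0.13 (adjusted p = 0.00608) with GSK343 and 0.55 ± 0.13 (adjusted p = 0.0122) with X5050. Both drugs at 72 h gave 0.10 (adjusted p = 0.593). The GSK343 call was lost without the first GSK343 library (adjusted p = 0.0896). The X5050 call was lost without the second DMSO library (adjusted p = 0.0501), without the first X5050 library (0.0537) or with only the compared groups fitted (0.0682).

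PLXND1, a receptor of SEMA3E, rose a little under each treatment at 72 h, with 57.5 and 62 CPM with GSK343, 60.9 and 59.6 CPM with X5050 and 61.7 and 68.0 CPM with both drugs at 72 h, against 44.7 and 46.4 CPM with DMSO. In the combination it stood at 25.9 and 29.2 CPM at 8 h and 43.6 and 44.8 CPM at 24 h. All 6 treated libraries at 72 h were above DMSO and both 8 h libraries were below. The log2 fold change was 0.51 ± 0.11, adjusted p = 0.00188 with both drugs, 0.40 ± 0.11, adjusted p = 0.0255 with X5050 and 0.39 ± 0.11, adjusted p = 0.0294 with GSK343. The call with both drugs was lost with the GC trend removed (adjusted p = 0.144). With X5050 the call was lost without the first DMSO library (adjusted p = 0.0566), without the first X5050 library (0.109) or with only the compared groups fitted (0.177). With GSK343 it was lost with any of the 4 libraries left out (adjusted p of 0.0534 to 0.293), with no count filter (0.0971), with the GC trend removed (0.0829), on unstranded counts (0.0585) or with only the compared groups fitted (0.126). PLXNB2, the receptor of SEMA4C, fell with both drugs and with neither alone, at 74.8 and 84.6 CPM with GSK343, 84.5 and 79.4 CPM with X5050 and 50.04 and 58.8 CPM with both drugs at 72 h, against 83.0 and 82.9 CPM with DMSO. Shorter combined treatment gave 54.0 and 59.3 CPM at 8 h and 50.1 and 56.6 CPM at 24 h. Every combination library was below every single-drug and DMSO library, and the 72 h call held with each library left out (log2 fold change -0.61 ± 0.12, adjusted p = 0.000832). PLXNB3, a receptor of SEMA5A, was low at 0.815 and 0.864 CPM with GSK343, 1.73 and 1.10 CPM with X5050 and 2.41 and 1.98 CPM with both drugs at 72 h, against 1.03 and 0.400 CPM with DMSO. The combination gave 0.674 and 1.02 CPM at 8 h and 0.736 and 0.802 CPM at 24 h. It rose with both drugs (log2 fold change 1.61 ± 0.43, adjusted p = 0.00726), a call lost without the second DMSO library (adjusted p = 0.0772), without the first 72 h combination library (0.0513) or on unstranded counts (0.0821). PLXNB1 was not called against DMSO at 72 h, but was lower than with GSK343 alone in the 72 h combination (log2 fold change -0.51 ± 0.15, adjusted p = 0.0154) and with X5050 (log2 fold change -0.53 ± 0.15, adjusted p = 0.0232). The first of these calls was lost without the first 72 h combination library (adjusted p = 0.177), without the first GSK343 library (0.0519) or without the second GSK343 library (0.0774), and the other with any of the 4 libraries left out (adjusted p of 0.120 to 0.178). NRP2, the co-receptor of the list, had 4 counts summed over the 72 h combination libraries and 0 in DMSO, at least 1.34-fold higher when DMSO is set to 3 counts for the pair.

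All 5 ephrins were higher with both drugs at 72 h than with DMSO, in a comparison where 19.2% of all genes rose, and 0 of the 5 calls held with each library left out. EFNA3, a lipid-anchored ephrin-A, had 1.03 and 0.926 CPM with GSK343, 0.949 and 0.878 CPM with X5050 and 3.46 and 2.79 CPM with both drugs at 72 h, against 1.57 and 1.12 CPM with DMSO. Under both drugs it measured 1.23 and 0.995 CPM at 8 h and 0.480 and 0.301 CPM at 24 h. The 72 h combination was highest and 24 h lowest, with no overlap between them and any other group. It rose with both drugs (log2 fold change 1.21 ± 0.33, adjusted p = 0.00835) and exceeded each single drug, by 1.67 ± 0.33 over GSK343 (adjusted p = 0.000876) and 1.77 ± 0.34 over X5050 (adjusted p = 0.000908), calls that held with each library left out. The call against DMSO was lost without the second DMSO library (adjusted p = 0.0665) or without the first 72 h combination library (0.0741). EFNA1 was likewise highest in the 72 h combination and lowest at 24 h. Its levels were 2.02 and 2.01 CPM with GSK343, 2.14 and 2.56 CPM with X5050 and 5.17 and 5.30 CPM with both drugs at 72 h, against 1.98 and 3.48 CPM with DMSO. Before 72 h, the combination gave 1.20 and 1.79 CPM at 8 h and 0.896 and 0.835 CPM at 24 h. It rose with both drugs (log2 fold change 0.94 ± 0.30, adjusted p = 0.0222), a call lost without the first DMSO library (adjusted p = 0.170), without the first 72 h combination library (0.0783), without the second 72 h combination library (0.0870), with the GC trend removed (0.0700) or with only the compared groups fitted (0.0612). EFNA4 had 4.75 and 5.31 CPM with GSK343, 5.49 and 4.94 CPM with X5050 and 8.54 and 7.25 CPM with both drugs at 72 h, against 4.87 and 5.88 CPM with DMSO. At the earlier combination times it had 5.98 and 6.02 CPM at 8 h and 4.26 and 3.81 CPM at 24 h. Its rise with both drugs was small (log2 fold change 0.55 ± 0.21, adjusted p = 0.0468) and was lost without the first DMSO library (adjusted p = 0.192), without the first 72 h combination library (0.253), without the second 72 h combination library (0.0646), in DESeq2 (0.0873), with RLE size factors (0.0559), with no count filter (0.154), with the replicate block (0.0523), with the GC trend removed (0.211) or with only the compared groups fitted (0.147).

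The membrane-spanning ephrins of the list were EFNB1 and EFNB2. EFNB1 had 5.42 and 6.45 CPM with GSK343, 2.88 and 1.90 CPM with X5050 and 5.21 and 4.16 CPM with both drugs at 72 h, against 2.77 and 2.68 CPM with DMSO. Cells with both drugs had 3.98 and 4.75 CPM at 8 h and 1.82 and 2.07 CPM at 24 h. GSK343 gave the highest values and X5050 overlapped DMSO. It rose with GSK343 (log2 fold change 1.12 ± 0.26, adjusted p = 0.00987) and with both drugs (log2 fold change 0.78 ± 0.26, adjusted p = 0.0291). The first call was lost without the second DMSO library (adjusted p = 0.0505), without the second GSK343 library (0.123) or with only the compared groups fitted (0.0513). That with both drugs was lost without the first DMSO library (adjusted p = 0.0638), without the second DMSO library (0.0844), without the first 72 h combination library (0.196), in DESeq2 (0.0515), with no count filter (0.0587), with the GC trend removed (0.117) or with only the compared groups fitted (0.0852). EFNB2, the ligand of EPHB4, had 1.49 and 1.08 CPM with GSK343, 1.19 and 0.914 CPM with X5050 and 2.37 and 1.34 CPM with both drugs at 72 h, against 0.619 and 0.560 CPM with DMSO. Both drugs gave 2.96 and 3.44 CPM at 8 h and 1.06 and 0.769 CPM at 24 h. DMSO was the lowest group and 8 h the highest. It rose with both drugs at 8 h (log2 fold change 2.43 ± 0.37, adjusted p = 8.7e-05) and at 72 h (log2 fold change 1.63 ± 0.39, adjusted p = 0.00380). The 72 h call was lost without the first 72 h combination library (adjusted p = 0.0708).

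EFNA4, EFNA3 and EFNA1 lie next to each other on chromosome 1 with 0 other protein-coding genes between them in RefSeq. An EFNA4-EFNA3 readthrough is annotated there, and its effect on the counts of EFNA4 and EFNA3 was not tested. Their upstream windows are shown because the 3 neighbours were highest together in the 72 h combination. All are on the plus strand of GRCh38.p14, and capitals mark the letters named above. The EFNA4 window is chr1:155063490-155063789, the EFNA3 window chr1:155078587-155078886 and the EFNA1 window chr1:155127626-155127925, with observed over expected CpG of 0.784, 0.810 and 0.731 in that order. GGGCGG or its reverse complement is in each, and GGACAG is in the EFNA1 window alone of the 3.
EFNA4: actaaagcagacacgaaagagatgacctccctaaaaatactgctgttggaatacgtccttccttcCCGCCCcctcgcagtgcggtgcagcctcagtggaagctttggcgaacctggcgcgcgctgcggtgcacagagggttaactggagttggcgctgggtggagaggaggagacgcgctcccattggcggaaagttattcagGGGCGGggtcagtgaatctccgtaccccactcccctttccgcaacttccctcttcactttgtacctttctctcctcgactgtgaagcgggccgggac
EFNA3: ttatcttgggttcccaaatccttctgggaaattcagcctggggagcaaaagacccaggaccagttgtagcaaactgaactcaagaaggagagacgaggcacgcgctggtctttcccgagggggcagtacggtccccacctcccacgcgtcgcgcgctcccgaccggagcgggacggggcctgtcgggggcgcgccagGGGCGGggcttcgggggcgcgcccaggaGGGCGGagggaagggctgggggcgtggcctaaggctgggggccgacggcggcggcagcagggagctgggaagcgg
EFNA1: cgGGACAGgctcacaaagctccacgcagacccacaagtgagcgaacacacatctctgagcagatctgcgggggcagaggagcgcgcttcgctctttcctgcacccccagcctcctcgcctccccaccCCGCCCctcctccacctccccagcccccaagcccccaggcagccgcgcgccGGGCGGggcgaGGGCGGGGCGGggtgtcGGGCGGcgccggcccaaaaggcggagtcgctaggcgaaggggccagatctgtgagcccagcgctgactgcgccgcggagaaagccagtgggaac

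Of 5 tested Eph receptors, 2 rose with GSK343 (EPHB6 and EPHB2), 2 with X5050 (EPHB6 and EPHA2) and 3 with both drugs at 72 h. The shares of all tested genes that rose were 9.12% with GSK343, 5.34% with X5050 and 19.2% with both drugs. EPHB6, a member whose kinase domain is inactive, had 76.1 and 77.2 CPM with GSK343, 43.5 and 29.5 CPM with X5050 and 65.9 and 49.5 CPM with both drugs at 72 h, against 13.8 and 9.44 CPM with DMSO. Earlier, both drugs gave 22.2 and 29.9 CPM at 8 h and 104 and 115 CPM at 24 h. Every treated library was above both DMSO libraries, and 24 h was the highest group. The log2 fold change was 2.72 ± 0.23, adjusted p = 1.33e-05 with GSK343, 1.65 ± 0.23, adjusted p = 0.000700 with X5050 and 2.31 ± 0.23, adjusted p = 7e-06 with both drugs at 72 h. These 3 calls held with each library left out. EPHB2, a receptor of ephrin-Bs, had 1.45 and 1.82 CPM with GSK343, 0.203 and 0.183 CPM with X5050 and 1.53 and 1.68 CPM with both drugs at 72 h, against 0.248 and 0.320 CPM with DMSO. In the combination it stood at 0.146 and 0.332 CPM at 8 h and 0.0640 and 0.167 CPM at 24 h. GSK343 and the 72 h combination overlapped each other and lay above all other libraries. It rose with GSK343 (log2 fold change 2.51 ± 0.48, adjusted p = 0.00303) and with both drugs (log2 fold change 2.48 ± 0.49, adjusted p = 0.000862), calls that held with each library left out, whereas X5050 alone gave -0.55 (adjusted p = 0.624).

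EPHA2 stayed under 1 CPM in every group, with 0.644 and 0.878 CPM in X5050 libraries and 0.570 and 0.267 CPM in the 72 h combination, against 0.0826 and 0.0800 CPM in DMSO libraries. It rose with X5050 (log2 fold change 3.16 ± 0.72, adjusted p = 0.00987), which held with each library left out. It also rose with both drugs (log2 fold change 2.29 ± 0.79, adjusted p = 0.0320), a call lost without the first DMSO library (adjusted p = 0.0931), without the second DMSO library (0.106), without the first 72 h combination library (0.232) or in DESeq2 (0.0844). EPHB4 had 118 and 126 CPM with GSK343, 165 and 133 CPM with X5050 and 147 and 157 CPM with both drugs at 72 h, against 139 and 151 CPM with DMSO. Shorter combined treatment gave 187 and 186 CPM at 8 h and 64.2 and 62.7 CPM at 24 h. GSK343 libraries lay below DMSO without a call, X5050 and the 72 h combination overlapped DMSO, and both 24 h libraries were far below all others (log2 fold change -1.19 ± 0.12, adjusted p = 1.03e-06). EPHA1 was not called against DMSO at 72 h, but was higher in the 72 h combination than with X5050 alone (log2 fold change 0.95 ± 0.27, adjusted p = 0.0137) and lower with X5050 than with GSK343 (log2 fold change -0.84 ± 0.27, adjusted p = 0.0347). The first was lost without the second 72 h combination library (adjusted p = 0.181), without the first X5050 library (0.0722), without the second X5050 library (0.0931), with the GC trend removed (0.0510) or on unstranded counts (0.272). The other was lost with any of the 4 libraries left out (adjusted p of 0.0945 to 0.230), in DESeq2 (0.0758), with no count filter (0.0964) or with only the compared groups fitted (0.0689). EPHA4, EPHB1 and EPHB3 were too low to test. EPHB1 had 14 counts in the 72 h combination and 3 in DMSO, a ratio of 4.68 with a 95% counting interval of 1.31 to 25.4.

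Of the netrin receptors, NEO1 and UNC5B were testable. NEO1 (neogenin), a receptor of netrins and of repulsive guidance molecules, had 12.6 and 16.1 CPM with GSK343, 1.32 and 3.22 CPM with X5050 and 2.85 and 3.74 CPM with both drugs at 72 h, against 3.51 and 5.2 CPM with DMSO. The combination gave 7.18 and 6.07 CPM at 8 h and 3.59 and 3.68 CPM at 24 h. GSK343 libraries were above all others, and the 72 h combination overlapped DMSO. It rose with GSK343 (log2 fold change 1.72 ± 0.31, adjusted p = 0.00187) and was lower with both drugs than with GSK343 alone (log2 fold change -2.12 ± 0.32, adjusted p = 8.75e-05), calls that held with each library left out. UNC5B, which mediates repulsion by netrins, had 447 and 482 CPM with GSK343, 32.7 and 131 CPM with X5050 and 58.4 and 51.1 CPM with both drugs at 72 h, against 260.2 and 175 CPM with DMSO. Under both drugs it measured 98.4 and 107 CPM at 8 h and 88.6 and 80.8 CPM at 24 h. The X5050 pair was wide apart, GSK343 lay above DMSO, and all combination libraries lay below DMSO. Both drugs at 72 h gave less than GSK343 (log2 fold change -3.09 ± 0.59, adjusted p = 0.00585) and less than DMSO (log2 fold change -1.99 ± 0.57, adjusted p = 0.0321). The call against GSK343 was lost without the second 72 h combination library (adjusted p = 0.0534). Against DMSO the call was lost with any of the 4 libraries left out (adjusted p of 0.0627 to 0.154), with no count filter (0.0731) or with the replicate block (0.0514). NTN1, the founding netrin, had 13 counts in the 72 h combination and 2 in DMSO, a ratio of 6.52 with a 95% counting interval of 1.48 to 59.5, and 12 of those 13 counts came from 1 library.

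SLIT3, a secreted ligand of robos, had the largest fold change of the members with both drugs. Its levels were 0.850 and 2.35 CPM with GSK343, 0.102 and 0.146 CPM with X5050 and 4.43 and 3.13 CPM with both drugs at 72 h, against 0.124 and 0.320 CPM with DMSO. Before 72 h, the combination gave 0.0586 and 0.0510 CPM at 8 h and 0.352 and 0.301 CPM at 24 h. Both 72 h combination libraries were the highest, GSK343 came next with its libraries wide apart, and all other libraries were lower. It rose with both drugs (log2 fold change 4.05 ± 0.54, adjusted p = 2.96e-05), which held with each library left out. It also rose with GSK343 (log2 fold change 2.83 ± 0.56, adjusted p = 0.00375), a call lost without the second GSK343 library (adjusted p = 0.0983). SLIT2, another secreted slit, had 2.59 and 1.82 CPM with GSK343, 4.95 and 2.60 CPM with X5050 and 2.28 and 2.25 CPM with both drugs at 72 h, against 3.26 and 3.6 CPM with DMSO. At the earlier combination times it had 3.98 and 2.47 CPM at 8 h and 1.31 and 2.47 CPM at 24 h, and it was not called in the comparisons with DMSO. ROBO3, known for letting commissural axons cross the midline, had 9.71 and 8.12 CPM with GSK343, 1.87 and 4.06 CPM with X5050 and 2.45 and 3.36 CPM with both drugs at 72 h, against 4.05 and 3.12 CPM with DMSO. Cells with both drugs had 1.90 and 2.17 CPM at 8 h and 1.86 and 1.90 CPM at 24 h. GSK343 was the highest group without overlap. It rose with GSK343 (log2 fold change 1.31 ± 0.31, adjusted p = 0.0104) and was lower with both drugs than with GSK343 alone (log2 fold change -1.61 ± 0.31, adjusted p = 0.000712), which held with each library left out. The first call was lost without the second DMSO library (adjusted p = 0.0787) or without the first GSK343 library (0.0683).

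Setting both drugs at 72 h directly against each drug, 9 members were higher and 10 lower than with GSK343 alone, where 39.4% of all genes were called, 18.9% up and 20.5% down. Against X5050 alone 12 were higher and 3 lower, where 30.3% were called, 17.5% up and 12.8% down. With the GC trend removed these splits were 7 up and 14 down, and 8 up and 4 down. Among all genes they were then 3536 up and 3964 down, and 2974 up and 2878 down. X5050 alone against GSK343 alone gave 1 member up and 15 down, where 21.1% of all genes were called, 6.85% up and 14.3% down. The members lower with X5050 than with GSK343 included SLIT3 (-3.66), EPHB2 (-3.06), SEMA4D (-2.78) and NEO1 (-2.67), in log2 units, and each of these 4 calls held with each library left out. The effect of GSK343 in the presence of X5050 differed from its effect alone for 13 members, 5 upward and 8 downward, where 18.8% of all genes were called, 9.75% up and 9.04% down. On the log2 scale, the fold change of GSK343 for EPHB6 was 0.66 with X5050 present and 2.72 without it, a difference of -2.06. For PLXNC1 it was -0.54 with X5050 present and 1.75 without it (difference -2.29), and for PLXNA1 -0.45 with X5050 present and 0.61 without it (difference -1.06). For SEMA7A it was 1.06 with X5050 present and -0.49 without it (difference 1.54), for EFNA3 1.77 with X5050 present and -0.46 without it (difference 2.23), and for PLXNA3 1.10 with X5050 present and 0.11 without it (difference 0.99). The fold changes thus had opposite signs for PLXNC1, PLXNA1, SEMA7A and EFNA3 and the same sign for EPHB6 and PLXNA3, though that of PLXNC1 with X5050 and those of EFNA3 and PLXNA3 without it were not called. These 6 differences held their call with each of the 8 libraries left out.

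Over time with both drugs, and before the GC trend was removed, more guidance genes lay below DMSO than above it at 8 and 24 h. Most members called between 24 and 72 h then rose. At 8 h 6 members were above DMSO and 14 below, where 43% of all genes were called, 21.8% up and 21.2% down. At 24 h 5 were above and 16 below, where 43.1% were called, 22% up and 21.1% down. Between 24 and 72 h 23 members rose and 5 fell, where 45.9% of all genes were called, 24.1% up and 21.8% down, and the median log2 fold change was 0.79 over members and 0.07 over all. Between 8 and 24 h 9 rose and 8 fell, where 35.8% were called, 18.4% up and 17.4% down. With the GC trend removed the splits were 7 up and 7 down at 8 h, 8 and 11 at 24 h, and 12 and 5 between 24 and 72 h. Among all genes they were then 3864 and 3408, 3798 and 3375, and 3043 and 3598. Semaphorins led the low values, with 1 up and 10 down of 14 at 24 h. Of these, SEMA3F, SEMA3G, SEMA4C and SEMA6C were not called with the GC trend removed.

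SEMA6B, a membrane-bound class 6 semaphorin that binds plexin-As, had 16.4 and 15.6 CPM with GSK343, 10.4 and 8.74 CPM with X5050 and 11.4 and 12.5 CPM with both drugs at 72 h, against 11.9 and 9.68 CPM with DMSO. Both drugs gave 2.14 and 3.21 CPM at 8 h and 3.39 and 3.68 CPM at 24 h. Its 8 and 24 h libraries were far below all 72 h libraries, DMSO included. It was below DMSO at 24 h (log2 fold change -1.61 ± 0.21, adjusted p = 1.96e-05) and rose again by 72 h (log2 fold change 1.76 ± 0.21, adjusted p = 8.02e-06). SEMA3B, a secreted semaphorin, showed the same order, with 1.38 and 1.99 CPM at 8 h, 2.02 and 2.41 CPM at 24 h and 6.13 and 4.85 CPM at 72 h, against 6.11 and 4.76 CPM in DMSO libraries (log2 fold change -1.68 ± 0.27, adjusted p = 0.000131 at 8 h). PLXNB1, the receptor of SEMA4D, had 10.8 and 11.5 CPM at 8 h, 15.9 and 16.1 CPM at 24 h and 26.8 and 33.7 CPM at 72 h, against 40.5 and 28.6 CPM in DMSO libraries (log2 fold change -1.63 ± 0.16, adjusted p = 1.74e-06 at 8 h). In all 3 the early groups lay below DMSO without overlap.

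A few members went the other way. SEMA3A, the secreted semaphorin first known for collapsing growth cones, had 2.81 and 2.17 CPM at 8 h, 3.55 and 4.08 CPM at 24 h and 0.920 and 1.87 CPM at 72 h, against 1.57 and 1.40 CPM in DMSO libraries, with a rise at 24 h (log2 fold change 1.36 ± 0.33, adjusted p = 0.00343). SEMA3C, of the same class, was highest at 8 h, with 1.32 and 1.58 CPM at 8 h against 0.0826 and 0.120 CPM in DMSO libraries (log2 fold change 3.78 ± 0.61, adjusted p = 0.000138), and the DMSO group held 5 counts. EPHA1 had 4.90 and 5.65 CPM at 24 h against 1.90 and 2.24 CPM in DMSO libraries (log2 fold change 1.35 ± 0.26, adjusted p = 0.000620), a call lost on unstranded counts (adjusted p = 0.272). EPHB4 and EPHB6 crossed over: from 8 to 24 h EPHB4 fell (log2 fold change -1.55 ± 0.12, adjusted p = 1.42e-07) while EPHB6 rose (log2 fold change 2.07 ± 0.22, adjusted p = 1.41e-05), both holding with each library left out. Of the ephrins, EFNA3 rose most between 24 and 72 h (log2 fold change 2.98 ± 0.37, adjusted p = 1.03e-05), followed by EFNA1 (log2 fold change 2.59 ± 0.33, adjusted p = 1.28e-05). SLIT2 and ROBO1 were called in none of the 5 comparisons with DMSO.

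**Figure D4:**
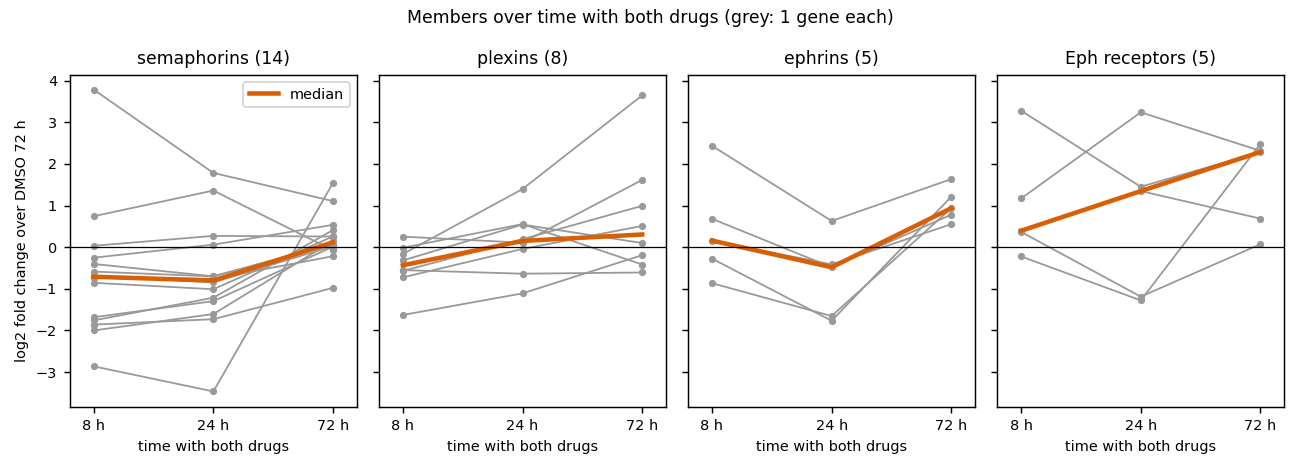
Log2 fold change against DMSO of each tested semaphorin, plexin, ephrin and Eph receptor at 8, 24 and 72 h with both drugs, 1 grey line per gene and the median of the role in orange. Most semaphorins lie below 0 at 8 and 24 h, all 5 ephrins are above 0 at 72 h, and EPHB6 is above 0 throughout; the DMSO libraries were taken at 72 h.

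In the excision arm 12 of the 46 tested members were called in at least 1 comparison. Those called in at least 2 comparisons were SEMA3A, SEMA3D, SEMA3F, SEMA4D, EFNB1, NEO1 and SLIT2, which rose, and PLXND1, which fell. The shares of all genes called in at least 1 or at least 2 comparisons were not counted, so these pooled counts describe the members only. In S1KO 7 members rose and 1 fell of 46 tested, where 3.67% of all 21284 tested genes were called, 2.44% up and 1.23% down. In S2KO 3 rose and 2 fell, where 2.01% were called, 1.45% up and 0.554% down. In DKO 9 rose and 1 fell, where 8.76% were called, 5.41% up and 3.35% down. With a replicate block the splits were 8 up and 1 down in S1KO, 5 and 3 in S2KO and 11 and 2 in DKO. Among all genes they were then 818 and 530, 510 and 206, and 1783 and 1389. The members' median log2 fold change was 0.12 for S1KO, 0.05 for S2KO and 0.56 for DKO, against 0.01 to 0.02 over all tested genes. The 3 excised groups share their EV libraries, and a member not called may still differ by an amount that 2 libraries per group could not show. Leaving out each library in turn left 3 to 5 called members for S1KO, 1 to 2 for S2KO and 5 to 8 for DKO.

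NEO1 had 15.3 and 15.2 CPM in S1KO, 1.25 and 2.27 CPM in S2KO and 6.33 and 5.80 CPM in DKO libraries, against 0.316 and 0.502 CPM in EV libraries. All excised libraries were above EV, S1KO most. It rose in S1KO (log2 fold change 5.21 ± 0.41, adjusted p = 0.00166) and DKO (log2 fold change 3.88 ± 0.39, adjusted p = 0.00254), calls that held with each library left out. It also rose in S2KO (log2 fold change 2.10 ± 0.37, adjusted p = 0.0477), a call lost without the second S2KO library (adjusted p = 0.135), without the first EV library (0.194), without the second EV library (0.102), on length-scaled counts (0.115) or with only the compared groups fitted (0.364). SLIT2 had 20.3 and 14.8 CPM in S1KO, 47.5 and 14.6 CPM in S2KO and 16.5 and 17.7 CPM in DKO libraries, against 0.885 and 0.143 CPM in EV libraries, so every excised library was above both EV libraries. The log2 fold change was 5.09 ± 0.91, adjusted p = 0.0334 in S1KO, 5.92 ± 0.94, adjusted p = 0.0329 in S2KO and 5.06 ± 0.91, adjusted p = 0.0193 in DKO. These calls were lost in S1KO without the first S1KO library (adjusted p = 0.137), without the second S1KO library (0.108), without the second EV library (0.0830), with no count filter (0.0971), on length-scaled counts (0.0640) or with only the compared groups fitted (0.0773). In S2KO the call was lost without the first S2KO library (adjusted p = 0.0510), without the second EV library (0.0804), with no count filter (0.0944), on length-scaled counts (0.0585) or with only the compared groups fitted (0.246). In DKO it was lost without the first DKO library (adjusted p = 0.0880), without the second DKO library (0.0905), without the second EV library (0.0502) or with no count filter (0.0602). PLXND1 had 24.3 and 21.9 CPM in S1KO, 19.0 and 17.7 CPM in S2KO and 15.8 and 12.6 CPM in DKO libraries, against 43.3 and 43.7 CPM in EV libraries. EV was the highest pair, with no overlap, and DKO the lowest. It fell in DKO (log2 fold change -1.62 ± 0.17, adjusted p = 0.00304), which held with each library left out, in S2KO (log2 fold change -1.24 ± 0.17, adjusted p = 0.0192) and in S1KO (log2 fold change -0.91 ± 0.17, adjusted p = 0.0380). The S2KO call was lost with any of the 4 libraries left out (adjusted p of 0.0667 to 0.103), on length-scaled counts (0.0734) or with only the compared groups fitted (0.192). In S1KO it was lost with any of the 4 libraries left out (adjusted p of 0.111 to 0.259), on length-scaled counts (0.108) or with only the compared groups fitted (0.130).

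**Figure D5:**
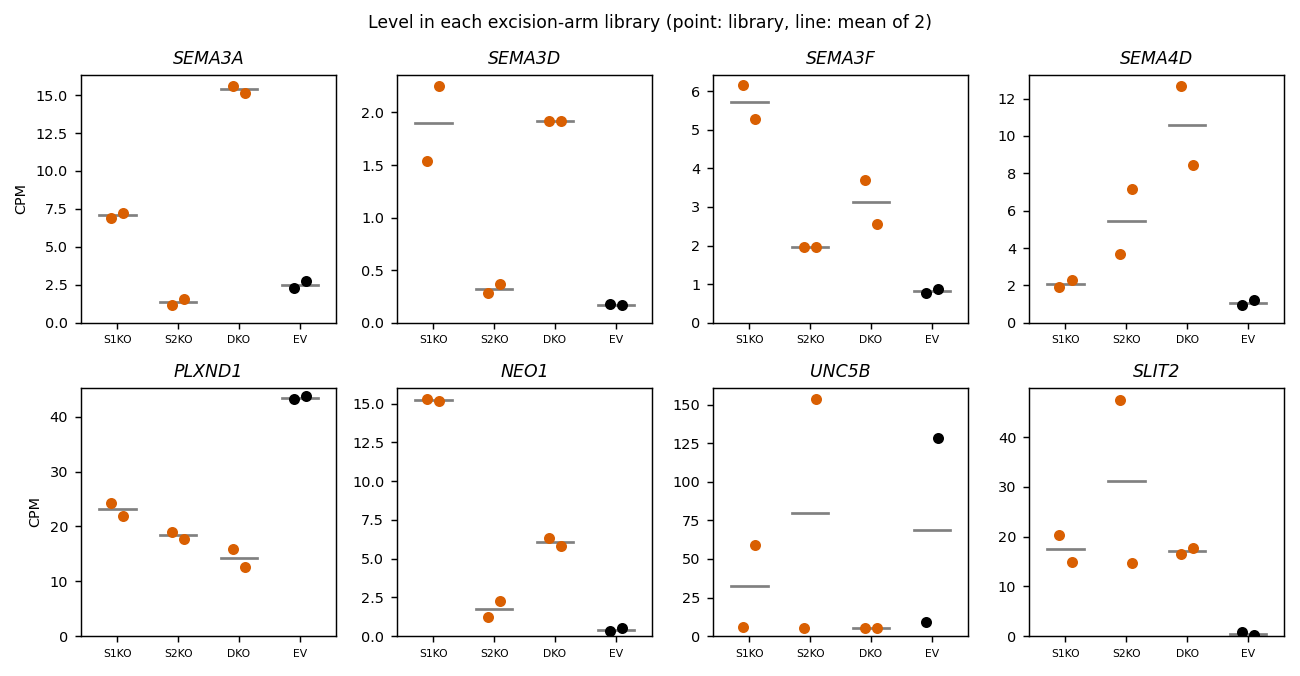
CPM in each of the 8 excision libraries for 8 members, 1 panel each on its own linear scale from 0, with a point per library and a line at the mean of 2. SEMA3A and SEMA3D are high in S1KO and DKO, PLXND1 is highest in EV, and UNC5B splits the libraries of S1KO, S2KO and EV widely while both DKO libraries are near 5 CPM.

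SEMA3A and SEMA3D, neighbours on chromosome 7 with 0 protein-coding genes between them, were higher in S1KO and DKO, and in S2KO they were not called. SEMA3E, the other direct neighbour of SEMA3A, was called in no excision comparison. SEMA3E had 0.133 and 0.128 CPM in S1KO, 0.644 and 0.329 CPM in S2KO, 0.342 and 0.339 CPM in DKO and 0.0506 and 0.191 CPM in EV libraries. SEMA3A had 6.91 and 7.24 CPM in S1KO, 1.16 and 1.56 CPM in S2KO and 15.6 and 15.1 CPM in DKO libraries, against 2.30 and 2.74 CPM in EV libraries. It rose in DKO (log2 fold change 2.61 ± 0.25, adjusted p = 0.00191) and S1KO (log2 fold change 1.49 ± 0.24, adjusted p = 0.0213), while S2KO gave -0.89 (adjusted p = 0.161). The DKO call was lost on length-scaled counts (adjusted p = 0.0891). In S1KO the call was lost with any of the 4 libraries left out (adjusted p of 0.0691 to 0.124), on length-scaled counts (0.589) or with only the compared groups fitted (0.115). SEMA3D, also secreted, had 1.54 and 2.26 CPM in S1KO, 0.283 and 0.368 CPM in S2KO and 1.92 and 1.92 CPM in DKO libraries, against 0.177 and 0.167 CPM in EV libraries. It rose in S1KO (log2 fold change 3.45 ± 0.36, adjusted p = 0.00456) and DKO (log2 fold change 3.47 ± 0.36, adjusted p = 0.00275), calls that held with each library left out. That in S1KO was lost on length-scaled counts (adjusted p = 0.0840). SEMA3F, a secreted ligand of neuropilin-2, had 6.16 and 5.27 CPM in S1KO, 1.97 and 1.96 CPM in S2KO and 3.70 and 2.55 CPM in DKO libraries, against 0.759 and 0.884 CPM in EV libraries. It rose in S1KO (log2 fold change 2.80 ± 0.30, adjusted p = 0.00501), which held with each library left out. It also rose in DKO (log2 fold change 1.92 ± 0.30, adjusted p = 0.0109), a call lost without the first DKO library (adjusted p = 0.0950) or without the first EV library (0.0548).

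SEMA4D had 1.94 and 2.27 CPM in S1KO, 3.69 and 7.15 CPM in S2KO and 12.7 and 8.47 CPM in DKO libraries, against 0.936 and 1.22 CPM in EV libraries, with all excised libraries above EV and DKO the highest group. It rose in DKO (log2 fold change 3.29 ± 0.42, adjusted p = 0.00565), which held with each library left out. It also rose in S2KO (log2 fold change 2.33 ± 0.41, adjusted p = 0.0449), a call lost without the second S2KO library (adjusted p = 0.120), without the first EV library (0.199), without the second EV library (0.147), on length-scaled counts (0.0714) or with only the compared groups fitted (0.269). EFNB1 had 5.01 and 3.83 CPM in S1KO, 4.12 and 3.44 CPM in S2KO and 6.49 and 6.19 CPM in DKO libraries, against 1.61 and 1.33 CPM in EV libraries, again with EV below every excised library. It rose in DKO (log2 fold change 2.11 ± 0.27, adjusted p = 0.00559) and S1KO (log2 fold change 1.59 ± 0.27, adjusted p = 0.0258). The DKO call was lost without the first DKO library (adjusted p = 0.0540). In S1KO it was lost with any of the 4 libraries left out (adjusted p of 0.0792 to 0.162) or with only the compared groups fitted (0.133). PLXNC1 had 5.43 and 6.27 CPM in S1KO, 0.914 and 1.63 CPM in S2KO and 1.73 and 1.26 CPM in DKO libraries, against 0.0885 and 0.490 CPM in EV libraries. It rose in S1KO (log2 fold change 4.32 ± 0.76, adjusted p = 0.0308), a call lost without the first S1KO library (adjusted p = 0.115), without the second S1KO library (0.130) or with only the compared groups fitted (0.0916). EPHB1, a receptor of ephrin-Bs, had 0.646 and 0.851 CPM in S1KO, 1.07 and 0.815 CPM in S2KO and 1.25 and 1.05 CPM in DKO libraries, against 0.468 and 0.358 CPM in EV libraries. It rose in DKO (log2 fold change 1.47 ± 0.35, adjusted p = 0.0478), a call lost with any of the 4 libraries left out (adjusted p of 0.0921 to 0.273), with no count filter (0.0770), with the GC trend removed (0.0511), on length-scaled counts (0.0792) or with only the compared groups fitted (0.0744). PLXNA2 had 2.30 and 1.82 CPM in S1KO, 0.116 and 0.0657 CPM in S2KO and 2.26 and 1.68 CPM in DKO libraries, against 3.31 and 0.992 CPM in EV libraries, with EV libraries wide apart. It fell in S2KO (log2 fold change -4.54 ± 0.70, adjusted p = 0.0291), a call lost without the first S2KO library (adjusted p = 0.0888), without the second S2KO library (0.150), without the first EV library (0.0506), on length-scaled counts (0.332) or with only the compared groups fitted (0.224).

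UNC5B, high in the second library of 3 groups, had 6.12 and 59.1 CPM in S1KO, 5.43 and 154 CPM in S2KO and 5.02 and 5.06 CPM in DKO libraries, against 9.21 and 128 CPM in EV libraries. Libraries 1 and 2 differed within S1KO, S2KO and EV while both DKO libraries were low, and no excision comparison called it. ROBO3 had 0.441 and 1.83 CPM in S1KO, 0.747 and 3.44 CPM in S2KO and 2.00 and 1.37 CPM in DKO libraries, against 0.506 and 2.19 CPM in EV libraries, and here too the second library was the higher one in S1KO, S2KO and EV. SEMA4C had 63.5 and 60.5 CPM in S1KO, 69.3 and 75.1 CPM in S2KO and 70.5 and 65.7 CPM in DKO libraries, against 80.2 and 69.4 CPM in EV libraries. EPHB4 had 151 and 114 CPM in S1KO, 150.4 and 111 CPM in S2KO and 137 and 142 CPM in DKO libraries, against 141 and 108 CPM in EV libraries. Neither was called, nor was EFNA4, with 5.06 and 3.87 CPM in S1KO, 3.06 and 2.13 CPM in S2KO and 4.11 and 3.88 CPM in DKO libraries, against 3.96 and 3.74 CPM in EV libraries. Counts on transcript identifiers absent from GENCODE 29 were left out of this arm, which limits several members. In PLXNA3 0.829% of the counts kept were on protein-coding transcripts, in EPHA4 4.56%, in EPHA1 7.63% and in ROBO3 8.41%. The share was 31.1% in SLIT3, 33.3% in NRP2 and 54.1% in SEMA3B, so the excision values of these members are uncertain. EPHB6 had 0 counts in EV libraries, where DMSO libraries of the other arm had 11.6 CPM, so its DKO call, at least 40.1-fold higher when EV is set to 3 counts for the pair, is uncertain too. Of the members that rose in at least 2 excision comparisons, NEO1 averaged 0.409 CPM in EV and 4.36 CPM in DMSO libraries. SEMA3F (0.822 and 4.83 CPM), SEMA4D (1.08 and 5.08 CPM), SLIT2 (0.514 and 3.43 CPM) and EFNB1 (1.47 and 2.72 CPM) were also lower in EV. SEMA3A (2.52 and 1.48 CPM) and SEMA3D (0.172 and 0.0819 CPM) were higher in EV. The arms were counted by different methods, and the reason for these gaps was not tested.

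Other members of the guidance families and the effectors behind the receptors were counted from fixed lists. Of 27 family members outside the 51, 8 were tested in the drug arm, and with both drugs at 72 h 2 rose and 3 fell, where 19.2% of all tested genes rose and 17.3% fell. NRP1, the neuropilin not in the list, had 6.18 and 5.99 CPM in the 72 h combination against 0.206 and 0.44 CPM in DMSO libraries (log2 fold change 4.21 ± 0.53, adjusted p = 4.32e-05). ROBO2 fell there (-1.82 ± 0.25) and in DKO, with 1.40 and 2.08 CPM in DKO against 12.4 and 20.6 CPM in EV libraries (log2 fold change -3.24 ± 0.38). Of 41 tested intracellular effectors 15 rose and 2 fell with both drugs, beside the same shares of all genes, with a median of 0.29 against 0.01 over all genes. With GSK343 13 rose and 0 fell, where 9.12% of all genes rose and 3.31% fell. In DKO 3 rose and 4 fell of 44, where 5.41% rose and 3.35% fell. TRIO, a guanine nucleotide exchange factor, rose by 1.97 ± 0.14 with both drugs, RND1, which binds plexins, by 3.47 ± 0.31, MICAL1, an oxidase of actin downstream of plexins, by 0.89 ± 0.13 and GIPC1 by 0.80 ± 0.13, in log2 units.

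The summed levels of several marker lists differed between these groups as well. The 13 neuronal markers summed to 16.8 to 21.5 CPM in the 72 h combination and 1.03 to 1.36 CPM in DMSO. SNAP25, SYT1, DCX, STMN2 and NEUROD1 were at 0 in the combination, and the 2 that could be tested, TUBB3 and SYN1, rose. Fibroblast and epithelial markers summed to 1152 to 1275 CPM in the combination and 550.0 to 601 CPM in DMSO, with 4 up and 1 down of 7 tested, where 19.2% of all genes rose and 17.3% fell. Myeloid and lymphoid markers summed to 68.5 to 77.6 CPM in the combination and 163 to 184 CPM in DMSO, with 2 up and 4 down of 9. Erythroid markers summed to 5018 to 6395 CPM in the combination and 2628 to 2760 CPM in DMSO, with 6 up and 5 down of 14. Megakaryocytic markers summed to 52.4 to 59.8 CPM with GSK343 and 35.5 to 36.1 CPM in the combination, against 16.8 to 22 CPM in DMSO. Endothelial markers overlapped, at 48.8 to 51.8 CPM in the combination and 39.3 to 59.6 CPM in DMSO. In the excision arm, erythroid markers summed to 9414 to 16802 CPM in S1KO, 6220 to 13055 CPM in S2KO and 17253 to 20182 CPM in DKO, against 2911 to 6530 CPM in EV. In DKO 4 of the 14 rose and 0 fell, where 5.41% of all genes rose and 3.35% fell. Megakaryocytic markers summed to 64.0 to 65.8 CPM in S1KO, 32.8 to 35.8 CPM in S2KO and 21.5 to 35.5 CPM in DKO, against 11.5 to 13.1 CPM in EV. Myeloid and lymphoid markers summed to 144 to 186 CPM in S1KO, 101 to 178 CPM in S2KO and 88.6 to 106 CPM in DKO, against 190 to 249 CPM in EV. Their part in the guidance gene results was not tested. The 51 guidance genes together summed to 1513 to 1525 CPM with GSK343, 1020 to 1056 CPM with X5050 and 1043 to 1084 CPM with both drugs at 72 h, against 998 to 1108 CPM with DMSO. Abundant members weigh most in this sum. UNC5B had 447 and 482 CPM with GSK343 and 260 and 175 CPM with DMSO, without a call. PLXNA1 had 325 and 277 CPM against 209 and 185 CPM, while EPHB4 was lower, at 118 and 126 CPM against 139 and 151 CPM.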

How the data were processed

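RNA of K562 cells was made into stranded, rRNA-depleted libraries, per the labels' protocols. For the drug arm the authors deposited STAR gene counts in unstranded and 2 stranded columns; the reverse-stranded counts, 8.01 to 9.77 times the forward ones, were used, and the summary lines that name no gene held 34.0% to 50.7% of the total and were left out. For the excision arm the authors deposited kallisto estimated counts, TPM and effective lengths (another deposited measure) per transcript. Trimmomatic 0.38, STAR 2.7.3a, kallisto 0.44.0 and hg19 are named in the submitters' processing notes, and the annotation release is not given in the sources used here. Transcripts were summed to genes with GENCODE 29, which matched 182235 of 215170 identifiers (84.7%) holding 87.8% to 90.4% of the estimated counts, and sums were rounded to whole numbers.

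Genes passing filterByExpr (19224 drug, 21284 excision) were fitted per arm with all its groups in edgeR 4.0.16 (R 4.3.3; TMM, quasi-likelihood F test, Benjamini-Hochberg adjustment over all genes, called under 0.05). Standard errors are approximate, from the fold change and F. CPM used all gene counts. DESeq2 1.42.0, size factors, filters, unstranded or length-scaled counts, a GC trend, a replicate block and left-out libraries were the alternatives. The scripts were tested on simulated data. Figures used matplotlib 3.10.9. Values in every library were given, by rule, for each member called against DMSO at 72 h or against EV with a group mean of at least 1 CPM, and for the member of each role with the highest EV level. Of other lists, called genes with the lowest p with both drugs at 72 h were named, up to 4. SEMA3A, SEMA3B, SEMA3C, SEMA6B, PLXNB1, EPHA1 and EPHA2 in the drug arm, and ROBO2 in DKO, were added after their values were seen. Members and lists were chosen with earlier results of these data known.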

Additional observations from a re-analysis of the deposited data

Results flagged for a closer look

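For 13 members the effect of GSK343 differed between cells with and without X5050, by an interaction term in the edgeR quasi-likelihood fit with Benjamini-Hochberg adjustment over all 19224 tested genes. The values here are the log2 fold change of both drugs over X5050 minus that of GSK343 over DMSO, all after 72 h. It was above 0 for EFNA3 (2.23 ± 0.48), PLXNA2 (1.89 ± 0.51), EFNA1 (1.60 ± 0.43), SEMA7A (1.54 ± 0.20) and PLXNA3 (0.99 ± 0.19). It was below 0 for PLXNC1 (-2.29 ± 0.46), EPHB6 (-2.06 ± 0.31), SEMA4F (-1.40 ± 0.40), ROBO3 (-1.33 ± 0.44), SEMA4D (-1.16 ± 0.31), PLXNA1 (-1.06 ± 0.18), SEMA4B (-0.58 ± 0.16) and PLXNB2 (-0.53 ± 0.17). Among all tested genes 18.8% were called in this comparison. The adjusted p was lowest for SEMA7A (0.000117) and highest for ROBO3 (0.0467). With each of the 8 libraries left out in turn, SEMA7A, PLXNA1, PLXNA3, PLXNC1, EFNA3 and EPHB6 stayed called. The other 7 lost their call without at least 1 library: PLXNA2 without the second DMSO library (adjusted p = 0.0599), without the second 72 h combination library (0.0582), without the first GSK343 library (0.0671) or without the first X5050 library (0.0643), SEMA4B without the first 72 h combination library (adjusted p = 0.0931), without the second GSK343 library (0.0632) or without the first X5050 library (0.0546), SEMA4D without the second 72 h combination library (adjusted p = 0.0587), without the second GSK343 library (0.0679) or without the second X5050 library (0.0709), SEMA4F without the second DMSO library (adjusted p = 0.0612), without the second 72 h combination library (0.105), without the second GSK343 library (0.0553) or without the second X5050 library (0.0832), and PLXNB2 without the first 72 h combination library (adjusted p = 0.167), without the second GSK343 library (0.131) or without the first X5050 library (0.0793). EFNA1 lost it without the second DMSO library (adjusted p = 0.0865), without the second 72 h combination library (0.0511), without the first GSK343 library (0.0579), without the second GSK343 library (0.0579) or without the first X5050 library (0.0618). ROBO3 lost it without the second DMSO library (adjusted p = 0.106), without the first 72 h combination library (0.169), without the second 72 h combination library (0.0597), without the first GSK343 library (0.113), without the second GSK343 library (0.0625) or without the second X5050 library (0.267).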

How the results depend on the processing

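Of 98 counts of called members under another normalization, filter, counting or model, 90 lay within 1.5 times the count reported. Those further away were X5050 against DMSO with only the compared groups fitted (4 members), the step between 24 and 72 h with the GC trend removed (17), S1KO with length-scaled counts (5) or only the compared groups (3), and S2KO with DESeq2 (11), with the replicate block (8), with length-scaled counts (1) or with only the compared groups (0). For that last edgeR fit 11 of 43 members had an unadjusted p under 0.05, and the cause was not tested. Among all genes, S2KO calls up and down were 757 and 327 with DESeq2 and 510 and 206 with the replicate block. They were 261 and 96 with length-scaled counts, 0 and 0 with only the compared groups, and 309 and 118 in the main fit. S1KO gave 445 and 219 with length-scaled counts and 195 and 106 with only the compared groups, against 520 and 261. X5050 gave 290 and 327 with only the compared groups, against 1026 and 1389. Same-numbered S1KO, S2KO and EV libraries deviated together (r of 0.488 to 0.622), but with DKO r was -0.0843 to -0.0591 and in the drug arm -0.0546 to 0.233. The labels do not say what a number marks, so the main fit did not take the numbers as pairs. For S1KO and S2KO against EV that fit may therefore leave out a shared shift, and the replicate block is the fit that includes it. Leaving out 1 library at a time gave 7 to 16 called members with GSK343, 4 to 9 with X5050, 10 to 14 with both drugs at 72 h, 13 to 20 at 8 h and 17 to 20 at 24 h. It gave 9 to 11 between 8 and 24 h, 22 to 25 between 24 and 72 h, 12 to 15 for both drugs against GSK343, 10 to 14 for both against X5050, 8 to 14 for X5050 against GSK343 and 8 to 14 for the interaction. In the excision arm it gave 3 to 5 in S1KO, 1 to 2 in S2KO and 5 to 8 in DKO. The counts of all genes called also changed with the library left out, so these ranges are not particular to the members. A group left with 1 library was assumed to vary like the others. Depth limits members under 1 CPM, such as SLIT3, EPHA2 and SEMA3C in DMSO, most.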
